A study of Mus musculus with 32 samples.

Results

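Gja1, Gjb2, Gjb5 and Gjb6 are 4 connexin genes, chosen by name from the family that builds gap junctions and matched by symbol to the gene identifiers of the deposited counts. All 4 were found among 55401 identifiers, and all 4 passed the filter on low counts that left 15546 genes for testing. The data are RNA sequencing of dorsal epidermis from 32 hairless mice of a mixed SKH-1/SV129/BL6/J background, aged 10 to 14 weeks, with 1 mouse per library. Wild-type mice (WT) were compared with littermates labelled as deficient for the nuclear receptor PPARβ/δ (KO, PPARD-/-), either sham handled (Control) or 24 h after a single UV exposure of 120 mJ/cm2 to the back (UV). Each combination of genotype, sex and treatment held 4 mice, so that 8 mice, 4 males and 4 females, stood in each genotype and treatment. All mice carried the hairless background, and the epidermis was separated from the dermis chemically and mechanically. The labels give neither the part of Ppard that was removed nor a restriction to certain cells.

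Connexins are membrane proteins that assemble into rings, called connexons, and connexons of adjoining cells dock to form channels through which ions and small molecules pass. Keratinocytes express several connexins in layers. Gja1 encodes Cx43, the most widely expressed connexin, found in basal and spinous keratinocytes. Gjb2 (Cx26) and Gjb6 (Cx30) are close relatives whose inherited mutations cause deafness and skin disease, and both are known to be scarce in resting epidermis between hair follicles and abundant in wounded or hyperproliferative epidermis. Gjb5 (Cx31.1) is found in differentiating keratinocytes.

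The members lie on 3 chromosomes, and 2 of them are neighbours. In the GENCODE M21 annotation (GRCm38), Gjb2 (ENSMUSG00000046352) covers chr14:57098600-57104702 and Gjb6 (ENSMUSG00000040055) chr14:57123303-57133611, both on the minus strand and 18600 bases apart, with the predicted coding gene Gm4491 between them. Gjb5 (ENSMUSG00000042357) lies at chr4:127354809-127358181 on the minus strand. Gja1 (ENSMUSG00000050953) covers chr10:56377330-56402513 on the plus strand. The coding sequence of each member stands in a single exon, downstream of noncoding exons. No annotated gene overlaps a member. The longest stretch identical between a member's transcripts and those of another connexin was 38 bases, between Gja1 and Gja5, shorter than a full sequencing read.

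The sequences that precede the transcription starts are printed because the 2 genes that rose after UV are neighbours and because the knockout removes a DNA-binding receptor. They are the 250 bases upstream of each RefSeq start (GRCm38.p6), written 5′ to 3′ on the strand of the gene. Capitals mark matches, on either strand, to 5 short motifs. These are the core of the TATA box, spelled TATAAA, the GC box bound by Sp1-like factors, spelled GGGCGG, the CCAAT box, and the AP-1 site, spelled TGANTCA with any letter at N. The last is the half-site recognised by nuclear receptors such as PPARs, which is spelled AGGTCA. The windows are chr14:57104703-57104952 for Gjb2, chr14:57133612-57133861 for Gjb6, chr4:127358165-127358414 for Gjb5 and chr10:56377050-56377299 for Gja1.
Gjb2: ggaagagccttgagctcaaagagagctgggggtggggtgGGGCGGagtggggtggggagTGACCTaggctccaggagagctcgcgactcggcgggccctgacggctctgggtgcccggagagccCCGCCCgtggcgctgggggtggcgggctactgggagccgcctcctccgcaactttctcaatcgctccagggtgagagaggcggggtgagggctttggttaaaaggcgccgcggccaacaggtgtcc
Gjb6: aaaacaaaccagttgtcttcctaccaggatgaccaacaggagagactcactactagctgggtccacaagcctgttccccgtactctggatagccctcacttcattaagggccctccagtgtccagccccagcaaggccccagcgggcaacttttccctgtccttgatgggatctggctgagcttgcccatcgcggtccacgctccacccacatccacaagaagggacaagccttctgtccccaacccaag
Gjb5: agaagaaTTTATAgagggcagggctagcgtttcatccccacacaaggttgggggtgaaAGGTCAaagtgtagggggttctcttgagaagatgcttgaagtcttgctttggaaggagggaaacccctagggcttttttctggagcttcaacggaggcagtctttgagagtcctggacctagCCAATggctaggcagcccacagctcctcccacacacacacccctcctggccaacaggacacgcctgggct
Gja1: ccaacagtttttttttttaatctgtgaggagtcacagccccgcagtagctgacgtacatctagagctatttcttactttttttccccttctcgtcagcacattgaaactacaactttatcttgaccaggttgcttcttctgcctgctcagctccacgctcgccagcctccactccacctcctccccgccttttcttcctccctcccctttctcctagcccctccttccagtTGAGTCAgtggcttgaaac

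No motif was common to all 4 windows, and the nuclear receptor half-site was in those of Gjb2 and Gjb5. The window of Gjb2 held GC boxes at -211 to -206 and -126 to -121, counted from the start, and the half-site at -191 to -186. That of Gjb6 held none of the 5 motifs. The Gjb5 window held the letters of the TATA box at -243 to -238, far from its usual position, the half-site at -192 to -187 and the CCAAT box at -70 to -66. In the Gja1 window an AP-1 site stood at -19 to -13. Among 32817 promoter windows of the same length, 12.4% held the TATA box, 32.7% the GC box, 33.8% the CCAAT box, 6.75% the AP-1 site and 14.0% the nuclear receptor half-site. The GC content was 69.2% for Gjb2, above the upper quartile of 61.2% of all windows, and 56.8% for Gjb6, 54.4% for Gjb5 and 50% for Gja1, between the quartiles of 45.2% and 61.2%.

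Gene counts summed to 22919428 to 40653581 reads in a mouse. Of 3 p53 targets listed, 2 rose after UV in WT at an adjusted p under 0.05 and 1 did not pass, while in KO 3 rose. Cdkn1a and Mdm2 rose in both genotypes (log2 fold change 2.24 and 1.87 in WT, 2.32 and 1.67 in KO). Ppard itself had 95.5 ± 6.08 cpm (SD, n = 8) in WT and 79.8 ± 6.87 cpm in KO mice without UV (log2 difference -0.26, adjusted p = 0.156), and 282.1 ± 24.7 against 210.4 ± 25.7 cpm after UV (log2 difference -0.42, adjusted p = 0.00114). A count over the whole gene does not check a deletion of part of it, so the genotype is given as labelled. Levels are in cpm, that is read counts relative to library sizes scaled by TMM, and tests are quasi-likelihood F tests of edgeR, with adjusted p values by the Benjamini-Hochberg method over all 15546 genes.

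UV moved every member, in opposite directions. Gjb2 and Gjb6 rose, Gjb5 fell by the largest factor and Gja1 fell slightly, in WT and KO alike. An adjusted p under 0.05 was reached by all 4 members in each genotype, against 71% of all genes in WT and 70.8% in KO, so a call alone sets the members apart from nothing. Of all genes, 34.5% were called higher and 36.5% lower in WT, and 37.3% and 33.5% in KO, where 2 members were higher and 2 lower. The median log2 fold change of all genes was -0.01 in WT and 0.09 in KO. Only genes that moved in a member's own direction were counted beside it. In WT 359 of 15546 genes rose as far as Gjb2 or farther, and 400 as far as Gjb6. As far as Gjb5 or farther 226 fell, whereas 5177 fell as far as Gja1. In KO these numbers were 607, 648, 160 and 4476.

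**Figure D1:**
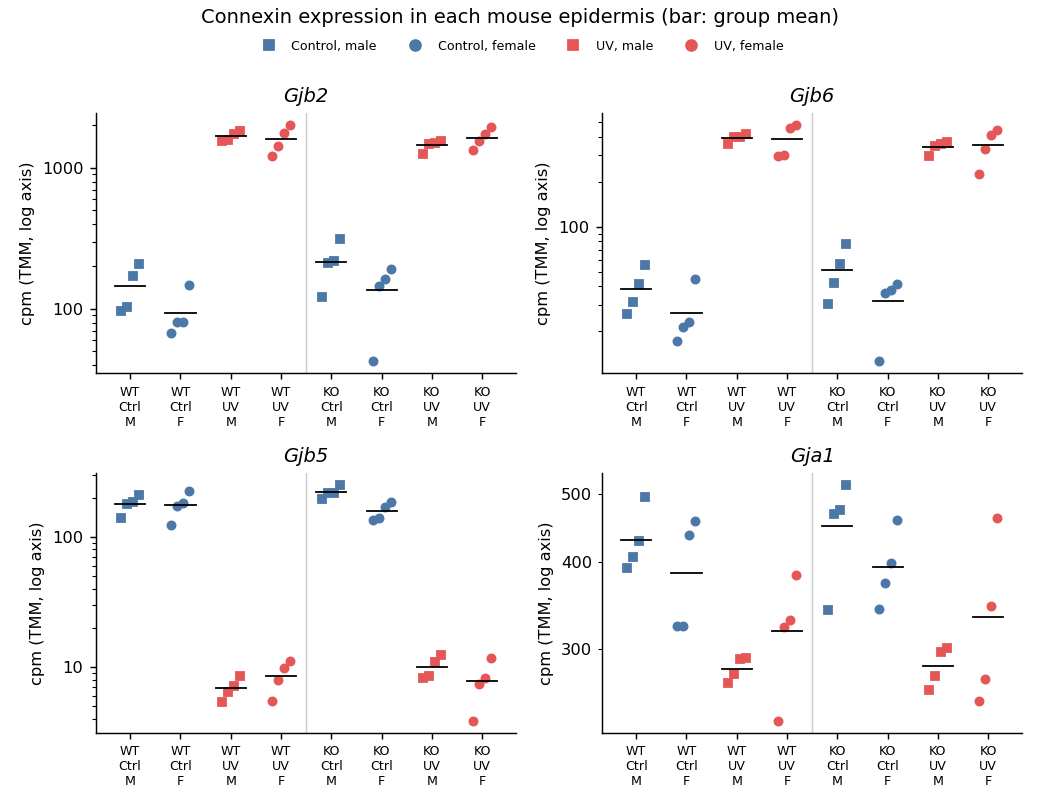
Level of each member in each of the 32 mice, in cpm after TMM scaling on a log axis, with 1 point per mouse, squares for males, circles for females, and a bar at the mean of the 4 mice of a group. For Gjb2, Gjb6 and Gjb5 the UV and Control mice do not overlap, while for Gja1 they do.

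Gjb2 had the largest level change in cpm of the 4 members. In WT epidermis without UV its level ran from 67.2 to 207.5 cpm (median 99.8, n = 8), and after UV from 1220.5 to 2010.8 cpm (median 1653). In KO epidermis it ran from 42.5 to 311.8 cpm (median 178.1) without UV and from 1254 to 1946 cpm (median 1529) after UV. Every UV-exposed mouse was above every control, and the lowest of the 16 UV-exposed mice stood 3.91 times above the highest of the 16 controls. The values of UV and Control mice did not overlap for 28.3% of all genes. The log2 fold change was 3.81 ± 0.25 (SE) in WT, a 14-fold rise (95% interval 9.78 to 20.1, adjusted p = 2.25e-13), and 3.17 ± 0.25 in KO, a 9-fold rise (6.35 to 12.8, adjusted p = 5.92e-12). The spread of Gjb2 between mice, relative to its mean, narrowed with exposure, from a coefficient of variation of 42.2% to 15.2% in WT and from 45.0% to 14.0% in KO. The coefficient also fell for Gjb6 (41% to 16.9% in WT and 45.1% to 19.3% in KO) but rose for Gjb5 (18.8% to 26.5% and 21.2% to 31%). For Gja1 it went from 14.9% to 15% in WT and from 15.7% to 22.1% in KO. These changes in spread were not tested.

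Gjb6, the neighbour of Gjb2, followed the same course at a lower level. WT mice had 17.3 to 55.9 cpm (median 28.7) without UV and 299.0 to 477.6 cpm (median 398.0) after UV. KO mice had 12.6 to 77.2 cpm (median 39.8) and 224.8 to 443.6 cpm (median 351.9). The 16 UV-exposed mice were again all above the 16 controls, with the lowest 2.91 times the highest control. The log2 fold change was 3.60 ± 0.25 in WT (12.1-fold, 95% interval 8.53 to 17.3, adjusted p = 4.5e-13) and 3.09 ± 0.24 in KO (8.51-fold, 6.03 to 12, adjusted p = 7.11e-12).

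Gjb5 made the opposite move. Its level was 122.9 to 226.1 cpm (median 181.0) in WT controls and 134.1 to 251.3 cpm (median 189.4) in KO controls. After UV it was 5.42 to 11.2 cpm (median 7.51) in WT and 3.85 to 12.4 cpm (median 8.41) in KO, from 133 to 345 reads per mouse. The lowest control stood 9.88 times above the highest UV-exposed mouse. The log2 fold change was -4.53 ± 0.19 in WT, where the level was 23.1-fold lower (95% interval 17.6 to 30.3, adjusted p = 2.53e-17), and -4.39 ± 0.19 in KO, 21-fold lower (16 to 27.5, adjusted p = 4.53e-17). By p value Gjb5 ranked 77 among all genes in WT and 80 in KO.

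Gja1 changed least. WT controls had 323.7 to 495.2 cpm (median 417.3) and WT mice after UV 237.1 to 383.6 cpm (median 290.8). KO controls had 341.7 to 515.5 cpm (median 428.5) and KO mice after UV 253.3 to 461.4 cpm (median 286.0). The groups overlapped in both genotypes. The log2 fold change was -0.44 ± 0.11 in WT, 1.36-fold lower (95% interval 1.16 to 1.6, adjusted p = 0.00108), and -0.45 ± 0.11 in KO, 1.37-fold lower (1.16 to 1.61, adjusted p = 0.000931).

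**Figure D2:**
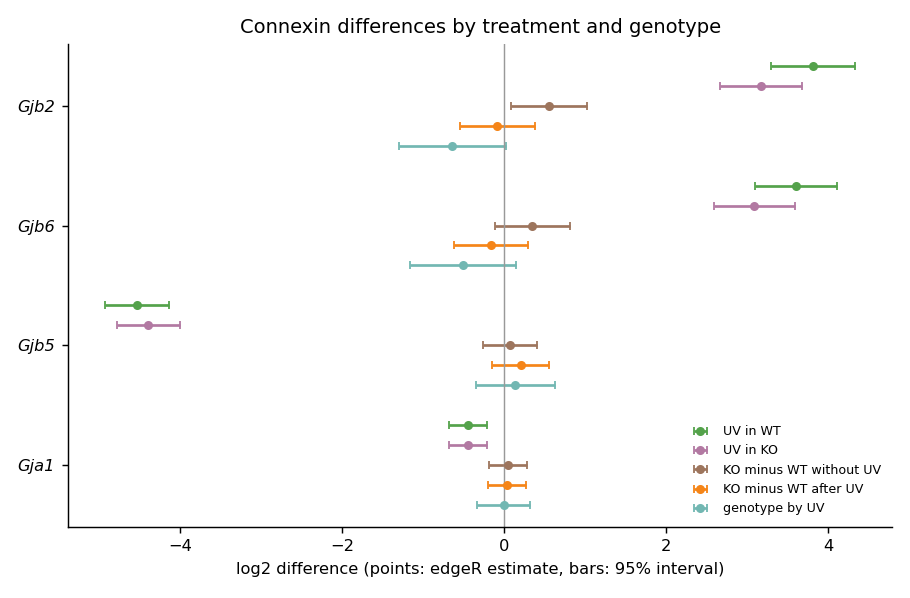
Log2 differences of the 4 members in 5 comparisons, with edgeR's estimate as a point and its 95% interval as a bar. The UV responses of both genotypes stand clear of 0 for each member, up to 3.81 for Gjb2 and down to -4.53 for Gjb5, and the differences between genotypes lie between -0.64 and 0.56.

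The genotype comparison addresses whether loss of PPARβ/δ alters the epidermis or its UV response. For the connexins no genotype difference passed the test. Without UV, 0 of the 4 members were called (32 genes in all, 0.206%), after UV 0 (514 genes, 3.31%), and for the difference between the genotypes' UV responses 0 (119 genes, 0.765%). DESeq2 and limma-trend also called none of the members in these comparisons. At an unadjusted p under 0.05 there was 1 member, Gjb2 without UV, where 8.52% of all genes passed that limit, and no member after UV or for the difference in response, where 20.1% and 19.6% of all genes did. Its mean was 175.9 ± 79.2 cpm in KO against 119.3 ± 50.4 cpm in WT controls, a log2 difference of 0.56 (95% interval 0.09 to 1.02, adjusted p = 0.469 by edgeR), and the lowest of all 32 values, 42.5 cpm, was a KO control. After UV the Gjb2 difference was -0.08 (-0.55 to 0.38). The UV response of Gjb2 was smaller in KO by 0.64 on the log2 scale (interval of the difference -1.30 to 0.02, adjusted p = 0.27), and that of Gjb6 by 0.51 (-1.16 to 0.14, adjusted p = 0.382). For Gjb5 the response differed by 0.14 (-0.35 to 0.62, adjusted p = 0.798) and for Gja1 by -0.01 (-0.34 to 0.32, adjusted p = 0.995). These intervals leave room for a difference of up to 2.46-fold for Gjb2 and 1.26-fold for Gja1.

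The study compared males with females, and Gja1 was the member whose UV call differed between single-sex comparisons. WT males had 391.6, 406.8, 427.7 and 495.2 cpm without UV and 268.4, 276.1, 290.4 and 291.3 cpm after it, with no overlap (log2 fold change -0.61, adjusted p = 0.00179). KO males had 341.7, 468.8, 474.0 and 515.5 cpm without UV and 262.6, 275.0, 296.9 and 301.4 cpm after it, again with no overlap (-0.66, adjusted p = 0.000826). How many of all genes separate the treatments within males in this way was not counted. By p value Gja1 ranked 6695 among all genes in WT males and 6249 in KO males, so the male calls do not set it apart.
WT females had 323.7, 323.8, 436.3 and 457.8 cpm without UV and 237.1, 322.4, 330.6 and 383.6 cpm after it (-0.28, adjusted p = 0.142). KO females had 342.3, 373.3, 398.0 and 459.0 cpm without UV and 253.3, 272.0, 345.9 and 461.4 cpm after it (-0.24, adjusted p = 0.204). In both female comparisons the treatments overlapped, and mouse 66F had the highest value of all UV-exposed mice. The sex difference in the response itself did not pass the test. It was 0.34 in WT (-0.13 to 0.80, adjusted p = 1 by edgeR) and 0.43 in KO (-0.04 to 0.89, adjusted p = 0.588). Averaged over the genotypes, a contrast chosen after these values were seen, it was 0.38 (0.05 to 0.71, adjusted p = 0.681), and without the 9 mice with over 1000 cpm of muscle markers, of which 7 were females and 2 males, it was 0.29 in WT and 0.47 in KO.

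The other members showed sex differences of the same sign that did not pass either. For Gjb2 the female response exceeded the male one by 0.56 in WT (-0.37 to 1.49, adjusted p = 1) and 0.85 in KO (-0.08 to 1.78, adjusted p = 0.586). For Gjb6 the differences were 0.51 and 0.73 (adjusted p = 1 and 0.659), and for Gjb5 0.33 and 0.11 (adjusted p = 1 and 0.96). Averaged over the genotypes the difference was 0.70 for Gjb2 (0.05 to 1.36, adjusted p = 0.698), 0.62 for Gjb6 (-0.03 to 1.27, adjusted p = 0.724) and 0.22 for Gjb5 (-0.26 to 0.71, adjusted p = 0.882). Without UV the group means were lower in females, with overlapping values except for Gjb5 in KO controls, where the females had 134.1 to 184.7 cpm and the males 194.2 to 251.3 cpm. How many of all genes separate the sexes in this way was not counted. Mean Gjb2 was 94.1 ± 36.6 cpm in female and 144.5 ± 53.8 cpm in male WT controls (SD, n = 4), and 135.8 ± 65.3 and 216.1 ± 78 cpm in KO controls, while after UV the means lay between 1449 and 1670 cpm in all 4 groups. No gene at all was called for sex by UV by edgeR, that is 0% of genes in WT, 0% in KO and 0% over both genotypes. At an unadjusted p under 0.05 there were 419 (2.7%), 1482 (9.53%) and 1091 genes (7.02%). The members among them were Gja1 and Gjb2, only in the contrast over both genotypes, which was chosen after the values were seen. DESeq2 called 3 genes in WT and 35 in KO, and no member was among those.

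Gjb2 and Gjb6 varied together from mouse to mouse, also among mice of the same treatment. Over the 16 controls the log2 levels had a Pearson r of 0.98 and a Spearman rho of 0.96 (permutation p = 1e-05 for both, the smallest that 100000 permutations can give, adjusted p = 0.00012 over 12 relations). Without the 2 mice farthest from the median r was 0.96. It was 0.98 within WT and within KO, and 0.96 within males and 0.98 within females, and 0.97 for deviations from the group means. Over the 16 UV-exposed mice r was 0.86 and rho 0.89 (permutation p = 2e-05 and 4e-05, adjusted p = 0.00012 and 0.00024), and r was 0.85 without the 2 farthest mice. It was 0.91 in WT, 0.84 in KO, 0.89 in either sex and 0.90 for the deviations. The number of Gjb2 reads per Gjb6 read held in a narrow range, 3.67 ± 0.29 in WT controls, 4.23 ± 0.31 in WT after UV, 4.15 ± 0.51 in KO controls and 4.53 ± 0.60 in KO after UV (SD, n = 8).

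**Figure D3:**
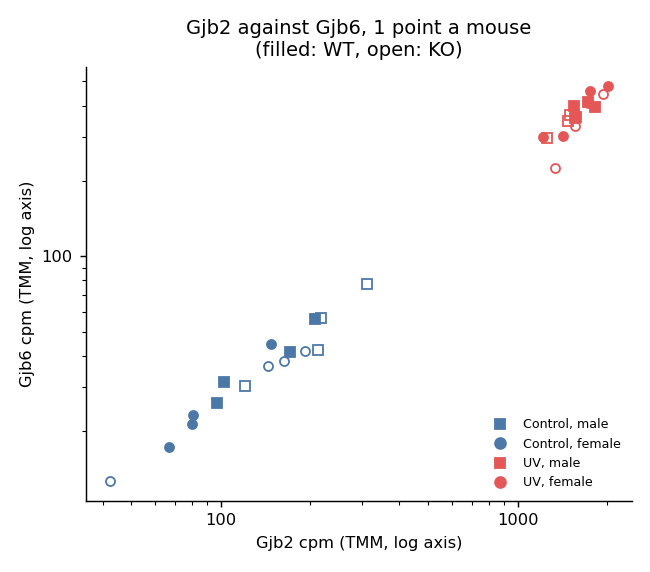
Gjb2 against Gjb6 in each of the 32 mice, in cpm on log axes, with filled symbols for WT and open symbols for KO. Controls and UV-exposed mice form separate clouds, and the pair rises together within each, with r of 0.98 among controls and 0.86 after UV.

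Gja1 was related to the pair more loosely. Its r with Gjb2 was 0.58 in controls (rho 0.58, permutation p = 0.0177 and 0.02, adjusted p = 0.0354 and 0.04), 0.45 without the 2 farthest mice, and 0.65 after UV (rho 0.59, p = 0.00531 and 0.0179, adjusted p = 0.0212 and 0.04), 0.55 without the 2 farthest. The permutations ran over all 16 mice of a treatment, and as deviations from the means of the genotype and sex groups r was 0.47 in controls and 0.72 after UV. Among males alone it was 0.41 in controls and 0.11 after UV, where Gja1 varied little among them, and among females 0.53 and 0.79. Within WT it was 0.41 in controls and 0.45 after UV, and within KO 0.71 and 0.9. Neither the difference between the sexes nor that between the genotypes was tested. With Gjb6 the r of Gja1 was 0.60 in controls (rho 0.58, permutation p = 0.0136 and 0.0196, adjusted p = 0.0326 and 0.04), 0.45 without the 2 farthest mice. After UV it was 0.61 (rho 0.66, permutation p = 0.0128 and 0.00701, adjusted p = 0.0326 and 0.028), 0.52 without the 2 farthest. As deviations from the group means it was 0.49 in controls and 0.74 after UV. Among males alone it was 0.32 and 0.16, among females 0.63 and 0.74, within WT 0.47 and 0.48, and within KO 0.7 and 0.79. No relation of Gjb5 with another member passed adjustment in either treatment. Within the genotypes its r differed in sign. In controls it was -0.73 in WT and 0.45 in KO with Gjb6, -0.66 and 0.48 with Gjb2, and -0.5 and 0.12 with Gja1. After UV these were -0.09 and 0.78, -0.03 and 0.38, and -0.03 and 0.3. The difference between the genotypes was not tested. The ratio of Gjb2 to Gjb5 reads went from 0.731 ± 0.424 to 226 ± 68.5 in WT and from 0.934 ± 0.396 to 191 ± 73.6 in KO.

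Reads per length show what these moves did to the makeup of the members' mRNA. Levels were divided by the length of the annotated principal transcript, giving cpm per kb. In WT controls the order of the mean levels was Gja1 (128.2), Gjb5 (103.0), Gjb2 (49.6) and Gjb6 (15.5 cpm per kb). Gja1 was above Gjb5 in 6 of 8 mice and Gjb5 above Gjb2 in 7 of 8, and in both pairs the ranges overlapped, while Gjb2 was above Gjb6 in all 8 without overlap. After UV the WT order was Gjb2 (679.9), Gjb6 (184.5), Gja1 (94.3) and Gjb5 (4.48 cpm per kb), and no ranges of neighbours in this order overlapped. The KO order was the same in both treatments. There Gjb2 and Gjb6 overlapped in the controls, and Gjb6 (106.8 to 210.7 cpm per kb) and Gja1 (79.6 to 145.0) overlapped after UV, although Gjb6 was above Gja1 in 8 of 8 mice.

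The summed level of the 4 members went from 296.2 ± 26.9 to 963.2 ± 138.8 cpm per kb in WT and from 334.9 ± 68.6 to 909.2 ± 139.3 in KO (SD, n = 8). The UV-exposed mice did not overlap the controls in either genotype, but how often other sums of genes separate in this way was not counted. Gjb2 went from 16.4 ± 5.79% of this sum to 70.5 ± 1.60% in WT and from 20.8 ± 6.5% to 70.8 ± 1.85% in KO. Gjb6 went from 5.14% to 19.1% in WT and from 5.69% to 18% in KO. Gjb5, which held 35.2% of the sum in WT controls and 33.2% in KO controls, was left with 0.474% and 0.57%. Gja1 went from 43.2% to 9.87% in WT and from 40.3% to 10.6% in KO. The shares depend on the length used. By the union of all annotated exons, which for Gja1 is 10257 bases against 3182 for the principal transcript, Gja1 held 19.5% of the sum in WT controls and Gjb5 50.8%, and by coding length 45.0% and 28.2%. Gjb2 held 79.1% and 75.8% after UV in WT by these lengths.

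**Figure D4:**
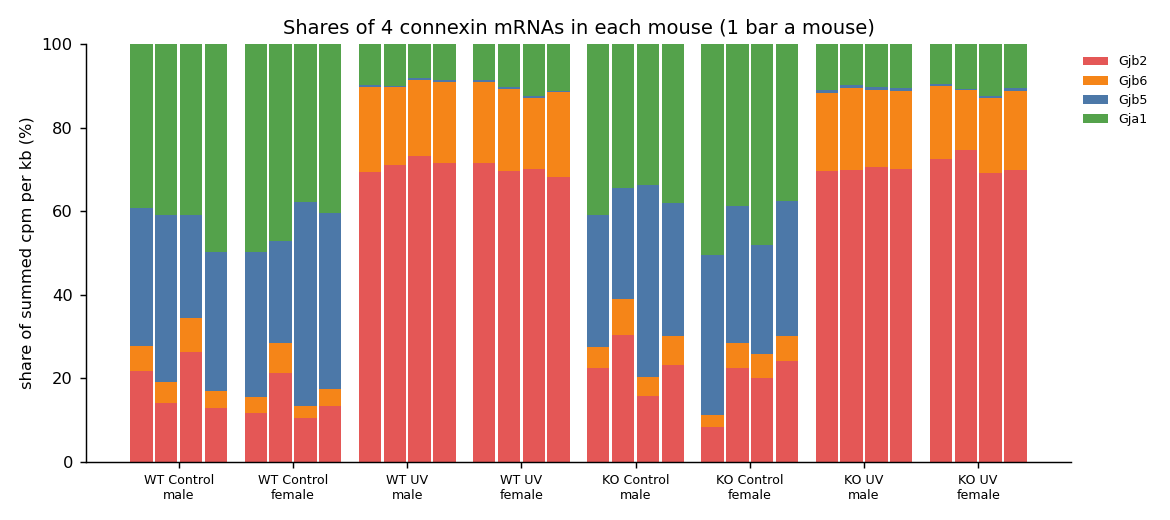
Share of each member in the summed level of the 4 members in each mouse, in percent of cpm per kb of principal transcript, with 1 bar per mouse and 4 bars per group. Gjb2 grows from a mean of 16.4% to 70.5% in WT and from 20.8% to 70.8% in KO, while the blue segment of Gjb5 shrinks to 0.474% and 0.57%.

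Of the 16 other connexin genes listed, all were in the files and 6 passed the filter, and the others had at most 20 reads in a mouse. In WT 1 of the 6 was called higher after UV, 4 lower and 1 not, with a median log2 fold change of -0.60, and in KO 2 were higher, 3 lower and 1 not, with a median of -0.34. Gjb1, the main liver connexin, rose by 2.72 and 2.00, from 2.45 ± 1.61 to 15.8 ± 4.89 cpm in WT.
Gja4, known from endothelium, had a change of -0.68 in WT (adjusted p = 0.0467), a call that was lost without 1 mouse for 19 of the 32 mice (adjusted p up to 0.13), and 0.05 in KO (adjusted p = 0.887). Gjc1 changed by 0.54 in WT (adjusted p = 0.203) and by 1.33 in KO (adjusted p = 0.0032), at 0.0721 to 1.71 cpm. The genotypes' responses did not differ by the test for Gja4 or Gjc1 (adjusted p = 0.348 and 0.426). Pannexins form related channels that do not pair between cells. Panx1 did not pass the test (0.07 in WT and 0.13 in KO, adjusted p = 0.407 and 0.112), except that it did in KO without mouse 54F or 62F (adjusted p down to 0.0338). Panx3 changed by -0.52 in WT (adjusted p = 0.546) and 2.24 in KO (adjusted p = 0.0117), and the KO call was lost without mouse 66F (adjusted p = 0.0535). Panx2 did not pass the filter.

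**Figure D5:**
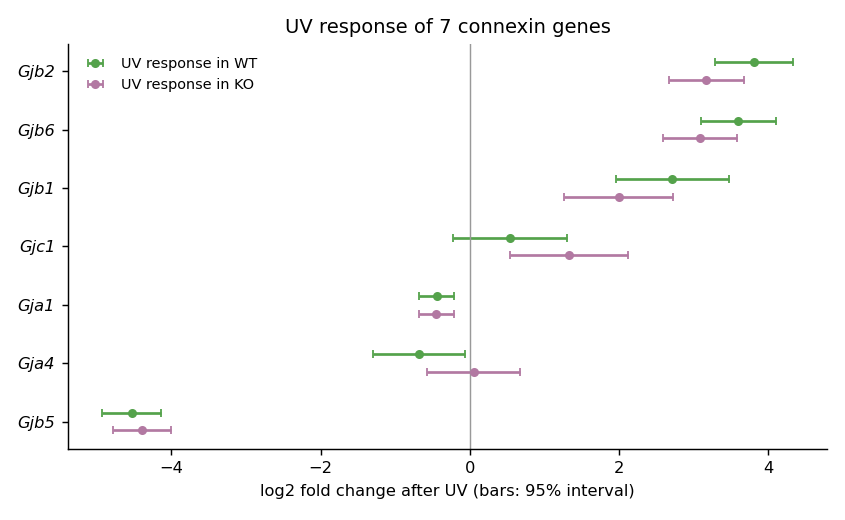
UV response of the 4 members and of Gja4, Gjb1 and Gjc1, as the log2 fold change in WT (green) and KO (purple), with 95% intervals as bars. Gjb2, Gjb6 and Gjb1 stand near 2.00 or above in both genotypes, and of the genes plotted Gjb5 stands lowest in both.

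Transcripts of proteins listed as partners of connexins were mixed in direction. Of 11 listed partners 10 were tested, with 4 higher, 3 lower and 3 not called in WT (median log2 fold change 0.10), and 3, 2 and 5 in KO (median 0.15). Tjp3, a scaffold of the zonula occludens, fell by 2.71 in WT (adjusted p = 9.37e-15; -2.96 in KO). Of 13 kinases, phosphatases and ubiquitin ligases that act on Cx43, 5 were higher, 6 lower and 2 not called in WT (median -0.05), and 6, 6 and 1 in KO (median 0.00). Src, the tyrosine kinase whose phosphorylation of Cx43 closes channels, rose by 1.85 in WT and 1.91 in KO (adjusted p = 3.35e-14 and 2.21e-14). Csnk1d, a casein kinase that phosphorylates Cx43, rose by 0.82 and 0.78 (adjusted p = 2.03e-13 and 6.65e-13).

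Among 8630 genes with a mean of at least 10 cpm, likeness to each member was measured as the root mean square difference of log2 cpm, centred on each gene's mean, over the 32 mice. For Gjb2 the nearest gene was Gjb6 (0.175), followed by Sprr1b (0.306), a precursor of the cornified envelope, and the noncoding RNA Mirt1 (0.362). For Gjb6 they were Gjb2 (0.175), the serine protease Klk6 (0.302) and Sprr2h (0.337), another envelope precursor. For Gjb5 they were Paqr5 (0.339), a membrane progestin receptor, Gal3st1 (0.384), a sulfotransferase of glycolipids, and Il20ra (0.402), a cytokine receptor subunit. For Gja1 they were Ckmt1 (0.190), a mitochondrial creatine kinase, the cell cycle factor E2f3 (0.190) and the histone methyltransferase Ezh2 (0.191).

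Markers of cell state moved with the same contrast. All 6 suprabasal keratinocyte markers (Krt1, Krt10, Ivl, Dsg1a, Krtdap and Flg) fell after UV in both genotypes, and their summed level went from 63700 to 74000 cpm in WT controls to 11470 to 24270 cpm after UV. The 5 basal markers were divided, with 2 higher and 2 lower in WT and 3 higher and 1 lower in KO, and their sum, carried by Krt14, went from 7040 to 16040 cpm to 16630 to 28780 cpm in WT. Myeloid markers rose (3 of 4 in WT, 4 of 4 in KO, summed 21.2 to 103 cpm in WT controls and 353.3 to 762.3 cpm after UV). This sum was carried by S100a8, with 193982 reads over all mice, against 40039 for Cd68, 30512 for Lyz2 and 3808 for Itgam. Which cells the S100a8 reads came from was not tested. All 3 Langerhans cell markers fell. The part of these cell state markers in the connexin responses was not tested, and in whole epidermis fewer cells of a type and less RNA per cell cannot be told apart. Skeletal muscle markers summed to over 1000 cpm in 9 mice, 7 of the 16 females and 2 of the 16 males, and in no male control. Without these mice all 4 members kept their UV calls in both genotypes. The fibroblast sum was 1982 cpm in the KO female 54F after UV and at most 92.2 cpm in all other mice.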

How the data were processed

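The counts per gene were deposited by the authors without normalization or filtering, as whole numbers of reads. According to the methods and the submitters' processing notes, stranded mRNA libraries were sequenced as single reads, trimmed with Cutadapt 1.8, cleared of ribosomal and low-complexity reads, aligned with STAR 2.5.3a and counted per gene with htseq-count 0.9.1. The processing notes name GRCm38. Reads on no gene (6.8% to 9.75%) were left out. A total of 55141 identifiers had a symbol in GENCODE M21.

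The filter kept the 15546 genes that reached 1 cpm in 1 or more mice. The 8 group means were fitted to all 32 mice with edgeR 4.0.16 (R 4.3.3, TMM, quasi-likelihood F test, Benjamini-Hochberg over all genes), and UV and genotype contrasts weighted the sexes equally. Fold changes are unshrunken coefficients, with standard errors and 95% intervals from the same test. Log2 cpm used a prior count of 1. Correlations used 100000 permutations. Promoters are from RefSeq and were found for 4 of 4 members. The fit was also run on simulated data in which a small set of genes changed in WT UV mice alone, with an outcome not reported here. That setting differs from these data, where most genes were called after UV in both genotypes.

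Named were the 4 members, every tested connexin and pannexin, the 2 genes with the smallest p in the WT UV response of each partner list, and the 3 genes most like each member, except that some genes of the lists are not reported here and stand only in the counts and medians. The members and lists were chosen with earlier results of these data known. Alternatives were RLE scaling, DESeq2 1.42.0, limma-trend (limma 3.58.1), filterByExpr, no filter, each genotype or sex alone, 4 groups without sex, cpm over raw totals and leaving out each mouse. Replicates are separate mice, and reads carry no molecular identifiers. For the members, with at least 133 reads in a mouse, counting error is small beside the spread between mice. It need not be for Gja4, Gjc1 and Panx3, with as few as 22, 2 and 0 reads in a mouse.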

Additional observations from a re-analysis of the deposited data

Results flagged for a closer look

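In 1 of 32 groups of 4 mice examined for the members, a single mouse stood apart from the others by more than Dixon's 95% limit, where chance gives about 1 in 20. The WT female control 63F had a Gjb2 level of 148 cpm, and the other 3 mice of its group had 67.2 to 80.8 cpm. The gap was 0.833 of the group's range.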

How the results depend on the processing

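All 4 members kept their UV calls in WT and KO under RLE scaling, DESeq2, limma-trend, both other filters, each genotype alone, 4 groups without sex, males alone, without the 9 mice with over 1000 cpm of muscle markers (an alternative chosen after seeing the data) and without any 1 mouse. With females alone, which has fewer samples, Gja1 did not pass (log2 fold change -0.24 in WT, adjusted p = 0.308, and -0.26 in KO, adjusted p = 0.256). No genotype, interaction or sex difference of a member passed under any alternative run. Signs changed only for differences that did not pass. With females alone the Gjb5 values were -0.15 (KO minus WT without UV), -0.18 (after UV) and -0.033 (genotype by UV), and the Gja1 genotype by UV value was 0.10 without the 9 mice. Leaving out 1 mouse gave ranges that crossed 0 for 5 of these differences, Gja1 genotype by UV (-0.13 to 0.043), Gja1 KO minus WT after UV (-0.0695 to 0.0899), Gjb5 KO minus WT without UV (-0.0017 to 0.14), Gjb5 genotype by UV (-0.034 to 0.23) and Gjb5 sex by UV in KO (-0.26 to 0.33). The cause was not tested.

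Counts of all genes called in the genotype comparisons moved by over 1.5 times. KO minus WT without UV, of 32 genes, gave 78 (DESeq2), 5 (males alone), 2 (females alone), 18 (without the 9 mice) and 20 to 45 without any 1 mouse. KO minus WT after UV, of 514 genes, gave 1116 (DESeq2), 260 (limma-trend), 263 (no filter), 7 (males), 1383 (females), 26 (without the 9 mice) and 133 to 983 without any 1 mouse. Genotype by UV, of 119 genes, gave 792 (DESeq2), 55 (no filter), 6 (males), 12 (females), 23 (without sex), 30 (without the 9 mice) and 56 to 346 without any 1 mouse. Sex by UV in KO gave 1 gene with KO fitted alone. Mean cpm over raw totals moved by less than the spread between mice. No paired analysis was possible because every mouse has its own identifier, a number with a sex letter, and with the letter left out any pair of the 8 groups shares at most 1 number.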
